A study of Mus musculus with 7 samples.

Results

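The 6 genes described here encode Ly6 proteins: Ly6a, Ly6c1, Ly6c2, Ly6e, Ly6g and Ly6i. They were taken by gene symbol from a table of 35641 genes, and all 6 were present and passed the filter of a mean of at least 10 normalized counts. The table held RNA sequencing of cells that the labels call neutrophils, taken from the lungs of female C57BL6 mice. There were 4 HF mice and 3 LF mice, 1 library each, and all were sorted for CD45 and CD11b, with Ly6G present and Ly6C low. The labels do not spell out HF and LF, and they give no age or treatment. HF libraries are numbered 1 to 4 and the LF libraries are named LF6, LF7 and LF8, as in the table.

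Ly6 proteins are small proteins with a three-finger fold, held at the outer face of the plasma membrane by a glycosylphosphatidylinositol (GPI) lipid anchor. Most mouse Ly6 genes of blood cells sit side by side in a cluster of duplicated genes, and several of them are raised by interferons. Antibodies to Ly6G and Ly6C are the usual means of telling mouse neutrophils from monocytes: mature neutrophils carry Ly6G and an intermediate amount of Ly6C, and classical monocytes carry much Ly6C and no Ly6G. The genes Ly6c1 and Ly6c2 both encode Ly6C proteins, so these 6 genes include those of both Ly6 antibodies of the sort.

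The members are close copies of each other, which bears on how reads can be assigned to them. The first 60 coding bases of 5 members are shown for that reason, from the GENCODE M21 transcripts of the mouse genome build GRCm38, with capitals at each base that differs from Ly6c2 at the same position.
Ly6c2: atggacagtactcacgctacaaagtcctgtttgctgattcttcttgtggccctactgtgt
Ly6c1: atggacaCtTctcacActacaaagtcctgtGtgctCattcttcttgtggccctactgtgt
Ly6a: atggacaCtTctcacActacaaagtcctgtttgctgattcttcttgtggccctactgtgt
Ly6i: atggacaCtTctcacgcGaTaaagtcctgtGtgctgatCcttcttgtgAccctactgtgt
Ly6g: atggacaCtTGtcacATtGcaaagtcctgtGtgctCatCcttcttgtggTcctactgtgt
Over these 60 bases Ly6a differed from Ly6c2 at 3 positions, Ly6c1 at 5, Ly6i at 7 and Ly6g at 10. Over the whole coding sequence Ly6c1 and Ly6c2 were identical at 384 of 393 bases (97.7%), Ly6a and Ly6i at 86.3% of aligned bases, and Ly6c2 and Ly6g at 79.1%. Ly6e stood apart, with 58.4% to 60.5% of aligned bases identical to each of the other members. Of all stretches of 50 bases in the transcripts, 32.8% in Ly6c1 and 31.2% in Ly6c2 were also found in another gene, mostly in each other. The share was 19.0% for Ly6a, 4.76% for Ly6i, 0.448% for Ly6g and 0% for Ly6e. With stretches of 100 bases the shares fell to 10.1% for Ly6c1, 14.9% for Ly6c2 and 1.45% for Ly6a. They were 0% for Ly6i, Ly6g and Ly6e at that length. Counts of Ly6c1, Ly6c2 and Ly6a are therefore less certain than those of Ly6g and Ly6e, and how the counting treated shared reads is not given in the sources used here.

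RefSeq's table of gene starts held 3 of the 6 members: Ly6c1, Ly6c2 and Ly6g. Their promoters are shown because Ly6c2 and Ly6g had opposite differences between the groups, given next, from starts that are alike in sequence. Each window runs from 250 bases before to 50 bases after a RefSeq start on chromosome 15 of GRCm38.p6, and capitals mark GAGGAAG, a motif of PU.1, a transcription factor of myeloid cells.
Ly6c2, chr15:75111922-75112221, minus strand: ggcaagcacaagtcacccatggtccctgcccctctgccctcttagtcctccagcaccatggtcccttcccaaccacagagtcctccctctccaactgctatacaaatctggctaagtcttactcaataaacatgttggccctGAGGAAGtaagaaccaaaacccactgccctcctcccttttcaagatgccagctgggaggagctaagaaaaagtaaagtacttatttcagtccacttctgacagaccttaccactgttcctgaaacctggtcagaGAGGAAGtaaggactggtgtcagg
Ly6g, chr15:75155079-75155378, plus strand: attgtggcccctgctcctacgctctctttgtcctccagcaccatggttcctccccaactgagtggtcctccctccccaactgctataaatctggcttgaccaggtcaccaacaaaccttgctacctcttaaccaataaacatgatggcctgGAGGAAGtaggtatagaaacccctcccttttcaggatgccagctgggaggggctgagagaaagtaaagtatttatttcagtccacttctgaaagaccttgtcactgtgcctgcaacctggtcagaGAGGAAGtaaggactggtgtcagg
Ly6c1, chr15:75048788-75049087, minus strand: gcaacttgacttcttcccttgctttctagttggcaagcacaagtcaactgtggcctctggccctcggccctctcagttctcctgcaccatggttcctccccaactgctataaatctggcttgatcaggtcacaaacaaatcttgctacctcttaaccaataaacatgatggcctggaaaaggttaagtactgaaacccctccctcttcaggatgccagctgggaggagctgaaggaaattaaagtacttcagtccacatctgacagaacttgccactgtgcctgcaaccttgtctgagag
In these windows Ly6c2 and Ly6g were identical at 85.1% of 276 aligned bases, and Ly6c1 and Ly6g at 87.4% of 253. Over all RefSeq starts held for them, Ly6c2 and Ly6g ranged from 82.5% to 86.0%. From the other RefSeq start of Ly6c1, Ly6c1 and Ly6g were identical at only 52.9% to 55.2%, so that likeness depends on the window. GAGGAAG began at -108 and +27 in Ly6c2 and at -99 and +27 in Ly6g, counted from the start site, on the gene's own strand in each case. From the other RefSeq start it began at -142 and -8 in Ly6c2, and only at -31 in Ly6g, so the shared position depends on the start. GAGGAAG was not whole in this Ly6c1 window, whose edge cuts through a copy after its first bases, gag. The window of a second RefSeq start of Ly6c1 held that copy whole. On either strand, 13.6% of 32851 RefSeq promoters of the same length held GAGGAAG. The interferon response element (3.44% of promoters) and the GAS element TTCNNNGAA (8.30%) were in none of the windows of these 3 genes, and the C/EBP motif TTGCNNAA (10.8%) was in 1, at a second start of Ly6g. A match is a string of letters and not a bound site.

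Directions below compare HF with what are called the libraries labelled LF, since these go against the Ly6G+ Ly6Clo sort in the RNA of its own marker genes. HF libraries held 13943173 to 16599658 recovered reads, and those labelled LF 16974428 to 18983351. Over all genes tested 26.2% were called higher in HF and 28.7% lower, by the limma test given below. Of 14 neutrophil marker genes 13 were higher in HF, and their summed level was 444329 to 595365 normalized counts in HF against 13193 to 14639. Ltf, Camp, Ngp and Stfa2l1 passed the filter only through HF, with means of 2.39, 1.94, 5.10 and 0.750 in the libraries labelled LF. The direction of those calls was thus partly set by the filter. Of 12 classical monocyte marker genes 9 were lower in HF and 2 were higher, with sums of 78446 to 104200 in HF against 167860 to 178475. Of 12 dendritic cell markers 8 were lower, among them Xcr1, which passed the filter only through the libraries labelled LF, and 1 was higher. Of 10 nonclassical monocyte markers 8 were lower and 1 was higher. These sets move with every difference given here, and their part in it was not tested. In sorted bulk RNA, fewer cells of a type and less RNA per cell cannot be told apart.

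Of the 6 members, 1 was higher in HF (Ly6g), 4 were lower (Ly6a, Ly6c2, Ly6e and Ly6i) and 1 did not pass (Ly6c1), by limma with Benjamini-Hochberg adjustment over all 14936 genes tested and a threshold of 0.05. Over all genes tested 55.0% passed, 26.2% as higher in HF and 28.7% as lower. With equal library totals 30.0% of the called genes were higher in HF, against 47.7% with the deposited scaling. For 5 of the 6 members the HF and LF values did not overlap, against 62.2% of genes tested. The median difference of the members was -0.76 on the log2 scale, beside -0.16 over all genes tested. On the recovered reads edgeR called the same 5 members and 51.0% of genes, and DESeq2 called all 6 members and 57.6% of genes. With shares of this size over the whole table, nothing is read from the count of members, and the description rests on the values by library.

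**Figure D1:**
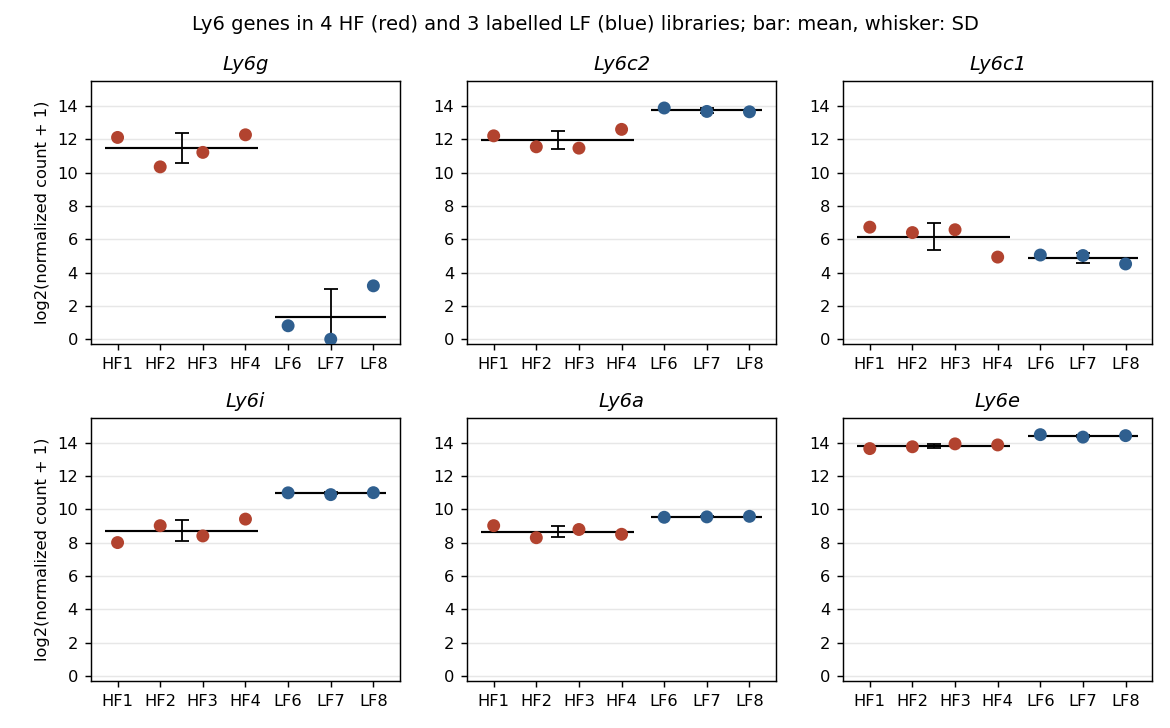
Normalized counts of the 6 Ly6 genes in each library, on a log2(normalized count + 1) axis common to all panels. Red points are the 4 HF libraries and blue points the 3 libraries labelled LF; bars are group means and whiskers 1 SD of the log2 values. Ly6g lies above 10 in every HF library and below 4 in every LF library, Ly6c2, Ly6i, Ly6a and Ly6e lie higher in the libraries labelled LF, and the Ly6c1 values of the 2 groups overlap.

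Ly6g (ENSMUSG00000022582) encodes the Ly6G protein for which all samples were sorted. It had 4431, 1301, 2378 and 4944 normalized counts in HF replicates 1 to 4, and 0.749, 0 and 8.22 in LF6, LF7 and LF8. The groups were far apart, and within HF the values were uneven, with HF replicates 1 and 4 above 2 and 3 and a 3.80-fold span. The mean was 3264 ± 1715 over the HF libraries (SD, n = 4) against 2.99 ± 4.54 over LF6 to LF8 (SD, n = 3). The difference was 10.15 on the log2(normalized count + 1) scale (SE 0.79, limma adjusted p = 1.94e-05). In reads, Ly6g had 10831 in HF and 13 in the LF libraries, 12 of these in LF8, 1 in LF6 and 0 in LF7, which allows up to 3 reads, or 2.25 normalized counts. The ratio of summed reads, scaled by the size factors, was 1037, with a 95% interval of 606 to 1948 that covers counting error only. The RNA of the gene that names the Ly6G+ gate was thus close to the limit of detection in LF6 and LF7, although both held more reads than any HF library.

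Ly6c2 (ENSMUSG00000022584) encodes the Ly6C protein most abundant on monocytes, and the sort took cells low in Ly6C. It had 4736, 2999, 2839 and 6199 normalized counts in HF replicates 1 to 4 and 15087, 13076 and 12882 in LF6, LF7 and LF8. Every LF library was above the highest HF library, and HF replicates 1 and 4 were again above 2 and 3. The mean was 4193 ± 1589 over the HF libraries (SD, n = 4) against 13682 ± 1221 over LF6 to LF8 (SD, n = 3). That is 3.26-fold more in the latter, or -1.78 on the log2 scale for HF minus LF (SE 0.26, limma adjusted p = 0.000697). With quantile normalization the difference was -2.68, and with equal library totals it was -2.30. Divided by Ly6c2 in the same library, the Ly6g count was 0.434 to 0.936 in HF and 0 to 0.000638 in the libraries labelled LF, and a ratio within a library does not depend on its scaling.

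Ly6c1 (ENSMUSG00000079018) encodes the other Ly6C protein, known in endothelial cells as well as in leukocytes. Its normalized counts were 105, 83.6, 94.2 and 29.5 in HF replicates 1 to 4 and 32.2, 31.5 and 21.9 in LF6, LF7 and LF8. HF replicates 1 to 3 were above every LF library, while HF replicate 4 lay among them, so the groups overlapped. The mean was 78.0 ± 33.5 over the HF libraries (SD, n = 4) against 28.6 ± 5.76 over LF6 to LF8 (SD, n = 3), a log2 difference of 1.29 with a 95% interval of 0.10 to 2.49. It did not pass (limma adjusted p = 0.0637, with a range of 0.0061 to 0.233 over the alternatives). Without HF replicate 4 it did (1.70, limma adjusted p = 0.0061), as with DESeq2 on the reads of all libraries (1.47, adjusted p = 0.0224) and in the authors' deposited table (1.45, adjusted p = 0.0209). The 10 endothelial markers summed to 491 to 790 normalized counts in HF and to 564 to 670 in LF6 to LF8. Within HF the sum was lowest in HF replicate 4, but Pecam1 was highest there (367 against 228 to 300 in replicates 1 to 3). The NK cell marker sum was also lowest in HF replicate 4 (328 against 1171 to 1264), as was the epithelial marker sum (1189 against 2039 to 3586). A low sum there was thus not particular to endothelial markers, and the T cell and the B and plasma cell sums were highest there. The part of the endothelial markers in the Ly6c1 values was not tested.

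The balance of the Ly6C genes was then compared within each library. Ly6c2 exceeded Ly6c1 by 45.1, 35.9, 30.1 and 210 times in HF replicates 1 to 4 and by 468, 415 and 588 times in LF6, LF7 and LF8. The ratios did not overlap, and HF replicate 4 lay between the other HF libraries and the LF libraries. Because these genes share long stretches of sequence, a small part of the Ly6c2 reads could be counted as Ly6c1 or left uncounted, and this was not tested.

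**Figure D2:**
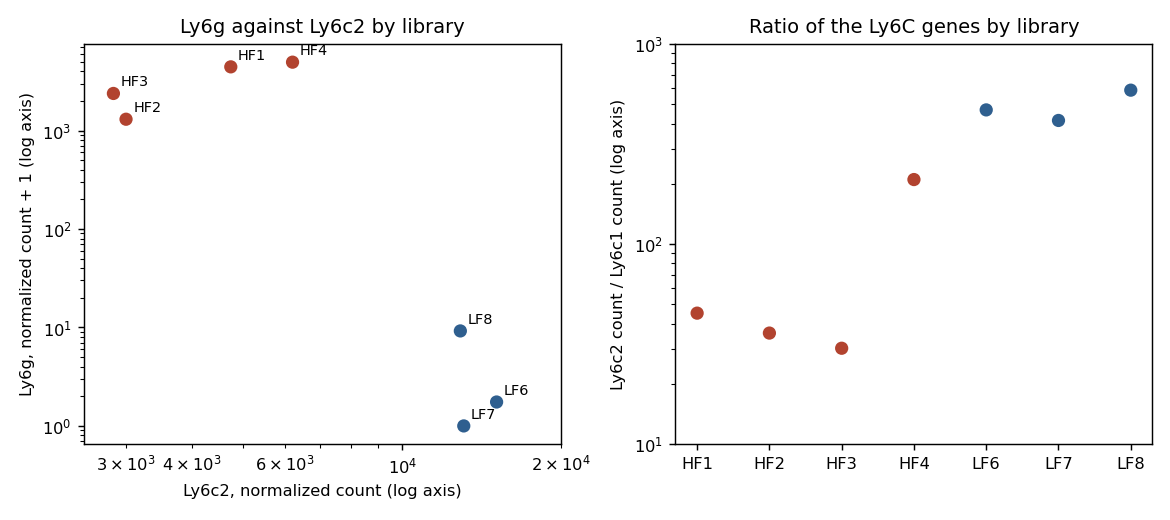
The left panel plots Ly6g (normalized count + 1) against Ly6c2 (normalized count) in each library on log axes, and the right panel plots the Ly6c2 count over the Ly6c1 count on a log axis. Red points are HF and blue points the libraries labelled LF. The groups separate along both axes on the left, and on the right HF replicate 4, at 210, lies between the other HF libraries (30.1 to 45.1) and the LF libraries (415 to 588).

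Ly6i (ENSMUSG00000022586), a close relative of Ly6a and Ly6C known from monocytes and macrophages, had a larger difference in favour of the libraries labelled LF than Ly6c2, Ly6a and Ly6e with the deposited scaling; with quantile normalization that of Ly6c2 was larger (-2.68 against -2.29). Its normalized counts were 256, 518, 337 and 681 in HF replicates 1 to 4, and 2035, 1888 and 2049 in LF6, LF7 and LF8. The groups did not overlap, and the HF libraries spanned 2.66-fold while the LF libraries spanned 1.09-fold. The mean was 448 ± 190 over the HF libraries (SD, n = 4) against 1991 ± 89.1 over LF6 to LF8 (SD, n = 3), with a log2 difference of -2.25 (SE 0.31, limma adjusted p = 0.000494). In HF the order of the libraries was not that of Ly6c2, since HF replicate 1 was the lowest for Ly6i and the second highest for Ly6c2.

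Ly6a (ENSMUSG00000075602) encodes Sca-1, a marker of blood stem cells and of interferon-exposed leukocytes. Its normalized counts were 519, 314, 442 and 362 in HF replicates 1 to 4 and 735, 747 and 765 in LF6, LF7 and LF8. All LF libraries were above all HF libraries and nearly equal to each other. The mean was 409 ± 90.2 over the HF libraries (SD, n = 4) against 749 ± 15.2 over LF6 to LF8 (SD, n = 3), a log2 difference of -0.90 (SE 0.19, limma adjusted p = 0.00458). Divided by Ly6a in the same library, Ly6i was 0.493 to 1.88 in HF and 2.53 to 2.77 in the libraries labelled LF, so the balance of these 2 genes differed without overlap. With quantile normalization the Ly6a difference was -0.65 and with equal library totals -1.42.

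Ly6e (ENSMUSG00000022587) encodes an interferon-induced Ly6 protein that is found on many cell types and limits the entry of coronaviruses. It had 12833, 13846, 15611 and 14942 normalized counts in HF replicates 1 to 4 and 22910, 20688 and 21997 in LF6, LF7 and LF8. The groups did not overlap, and its HF libraries were the most even of the 6 genes, with a 1.22-fold span. The mean was 14308 ± 1223 over the HF libraries (SD, n = 4) against 21865 ± 1117 over LF6 to LF8 (SD, n = 3), 1.53-fold more in the latter, with a log2 difference of -0.61 (SE 0.08, limma adjusted p = 0.000261). Its size depended on the scaling, at -1.13 with equal library totals and -1.59 with quantile normalization. Divided by Ly6c2, Ly6e was 2.41 to 5.50 in HF and 1.52 to 1.71 in the libraries labelled LF, with no overlap, while Ly6a over Ly6e, Ly6a over Ly6c2 and Ly6i over Ly6c2 overlapped between the groups.

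Levels of different genes were compared per kilobase of merged exons from GENCODE M21, with 14920 tested genes ranked in each group. In HF the order was Ly6e (5700 ± 487 normalized counts per kb, rank 196), Ly6c2 (4831 ± 1831, rank 231), Ly6g (3465 ± 1820, rank 346), Ly6i (388 ± 164), Ly6a (339 ± 74.9) and Ly6c1 (46.5, from 17.6 to 62.6 by library; all SD, n = 4). Among the HF libraries the ranges of Ly6e, Ly6c2 and Ly6g overlapped, as did those of Ly6i and Ly6a. Within each of the 4 HF libraries, however, Ly6g was below both Ly6e and Ly6c2, while Ly6c2 was below Ly6e in 2 of 4 and Ly6a below Ly6i in 2 of 4. In the libraries labelled LF the order was Ly6c2 (15762 ± 1407, rank 14), Ly6e (8711 ± 445, rank 34), Ly6i (1722 ± 77.1), Ly6a (622 ± 12.6), Ly6c1 (17.0 ± 3.43) and Ly6g (3.17 ± 4.82; SD, n = 3). There no neighbouring pair overlapped. Ly6g moved from rank 346 to rank 13399, and Ly6c2 and Ly6e stood at ranks 14 and 34 in the libraries labelled LF.

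For 5 of the members the 3 genes with the most similar profile are given, found by the root mean square (RMS) difference of log2 values over the 7 libraries, each centred on its gene's mean, among 9581 candidates with a mean of at least 50. For Ly6g these were Crispld2 (0.65), Rufy4 (0.82) and Nlrp12 (0.86). For Ly6c2 they were Ndufs3 (0.11), Ythdc2 (0.12) and Apip (0.14), and for Ly6i Enoph1 (0.14), Slc41a1 (0.15) and Abi3 (0.19). For Ly6c1, whose HF replicate 4 was low, they were Arhgap19 (0.19), Itgb3 (0.22) and Lrp8 (0.25). For Ly6e they were Psmd12 (0.03), Srsf3 (0.05) and Fbxw5 (0.06). These distances take in the difference between the groups, and the 3 smallest of 9581 are small by the search alone. Nothing is read from their size. Among the members themselves the nearest were Ly6a and Ly6e (0.29) and then Ly6c2 and Ly6i (0.52), while Ly6g was at least 4.61 from each of the others.

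The other genes of the Ly6 and urokinase receptor (uPAR) family have roles that range from neurons to epithelia. Of 42 listed, 36 were in the table and 7 passed the filter, 3 of them higher in HF and 0 lower, with a median log2 difference of 0.995. Of these 7, 42.9% were called, beside 55.0% over all genes tested. The filter takes the mean over all libraries, and Ly6g2, Lypd6b and Ly6g5b passed it only through HF. Their means were 32.6, 475 and 32.9 in HF against 0.250, 7.11 and 4.37 in the libraries labelled LF. The count and the median are thus partly set by the filter, and nothing is read from them. At an unadjusted p under 0.05, 1 gene (Lynx1) was lower in HF, and edgeR and DESeq2 called 0 as lower. With equal library totals, and without HF replicate 1, 5 passed, 3 higher and 2 lower (Ly6a2 and Lynx1). The 10 genes listed at 0 in all LF libraries (among them Lypd5, Lypd6 and Slurp2) and the 3 listed at 0 in all HF libraries (Ly6l, Lypd3 and Slurp1) all fell under the filter.

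Ly6g2, which lies next but one to Ly6g in the RefSeq order and had a coding sequence identical to it at 86.6% of aligned bases, was low but followed it in direction. It had 23.1, 45.0, 30.3 and 32.1 normalized counts in HF replicates 1 to 4 and 0, 0.751 and 0 in LF6, LF7 and LF8. All HF libraries were above all LF libraries, with a log2 difference of 4.76 (SE 0.67, limma adjusted p = 0.000535). It passed under every alternative that gave it a value, with a size from 2.81 with a pseudocount of 5 to 6.98 with DESeq2. In reads these were 107 against 1, a scaled ratio of 133 with a counting interval of 23.4 to 5307. No stretch of 50 bases in its transcripts was found in another gene.

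Lypd6b, a family member known to modulate nicotinic acetylcholine receptors, had 410, 337, 462 and 690 normalized counts in HF replicates 1 to 4 and 2.25, 6.76 and 12.3 in LF6, LF7 and LF8. The groups did not overlap, and the log2 difference was 6.05 (SE 0.52, limma adjusted p = 3.31e-05). Plaur, the urokinase receptor, which also carries a GPI anchor and is known on neutrophils and monocytes alike, had 8510, 7807, 8753 and 10184 in HF replicates 1 to 4 and 4276, 4301 and 4634 in LF6, LF7 and LF8. The difference was 0.995 in log2 units, with HF higher (SE 0.09, limma adjusted p = 5.72e-05), and by 0.21 with quantile normalization, where it still passed.

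Ly6a2, whose RefSeq promoter was identical to that of Ly6c2 at 98.3% of 295 aligned bases, was uneven within HF. It had 3981, 667, 618 and 1956 normalized counts in HF replicates 1 to 4 and 3535, 3118 and 2943 in LF6, LF7 and LF8. HF replicate 1 was the highest of all 7 libraries while HF replicates 2 and 3 were the lowest, and the log2 difference of -1.25 did not pass (SE 0.61, limma adjusted p = 0.117). Leaving out HF replicate 1 made it pass (-1.78, adjusted p = 0.012 by limma), as did quantile normalization (-1.64, adjusted p = 0.033) and equal totals (-1.77, adjusted p = 0.0342). The difference was smaller with edgeR and the authors' size factors (-0.82) and with DESeq2 (-0.81), and did not pass with either. Of 12 alveolar macrophage markers 10 were tested, 3 of them higher in HF (Siglecf, Ear1 and Abcg1) and 2 lower (Ear2 and Mrc1). Thus 50% passed, near the 55.0% of all genes tested, and nothing is read from the count. Marco was listed at 0 in all HF libraries and in LF7 and LF8. The sum of the 12 markers was 35593 normalized counts in HF replicate 1, 10755 to 12711 in the other HF libraries and 24500 to 26985 in those labelled LF. Chil3, which is also on the classical monocyte list, made up 30151 of the sum in HF replicate 1. Without Chil3, as computed after its values were seen, the sum was 5442 in HF replicate 1, 3676 to 4762 in the other HF libraries and 5241 to 6532 in those labelled LF. The part of these markers in the Ly6a2 value was not tested.

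Ly6d, a marker of early B cells and of squamous epithelium, was also higher in HF replicates 1 and 4 than in 2 and 3, with 335, 105, 118 and 472 normalized counts in HF replicates 1 to 4 and 92.9, 156 and 215 in LF6, LF7 and LF8. The groups overlapped and the difference did not pass (0.52, SE 0.58, limma adjusted p = 0.470), at 0.14 to 0.86 with a library left out and 0.00797 with equal library totals. The summed B and plasma cell markers followed the same pattern over the HF libraries, at 3160 and 3657 in HF replicates 1 and 4 and 1224 and 1315 in 2 and 3. So did the sums of T cell, neutrophil and classical monocyte markers, so the pattern was not particular to B cells. Among the LF libraries the B and plasma cell sum was highest in LF7 and Ly6d in LF8. The part of any of these sets in the Ly6d values was not tested. Lynx1, known for binding nicotinic receptors in the brain, ranged from 0 to 61.1 in HF, while LF6 to LF8 had 55.6 to 88.4 (-3.26, SE 1.36, limma adjusted p = 0.0736), and passed once HF replicate 1 was left out (-4.31, adjusted p = 0.0147) or with equal totals (-3.71), while edgeR and DESeq2 each gave -1.78 and did not call it. Ly6g5b ranged from 0 to 92.2 in HF and reached 7.51 in LF7, its highest LF value (1.51, SE 1.47, limma adjusted p = 0.410), and rested on single libraries: it passed without HF replicate 2, where it was at 0 (2.76, limma adjusted p = 0.0397), and was 0.58 without HF replicate 1, where it was highest (limma adjusted p = 0.738).

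**Figure D3:**
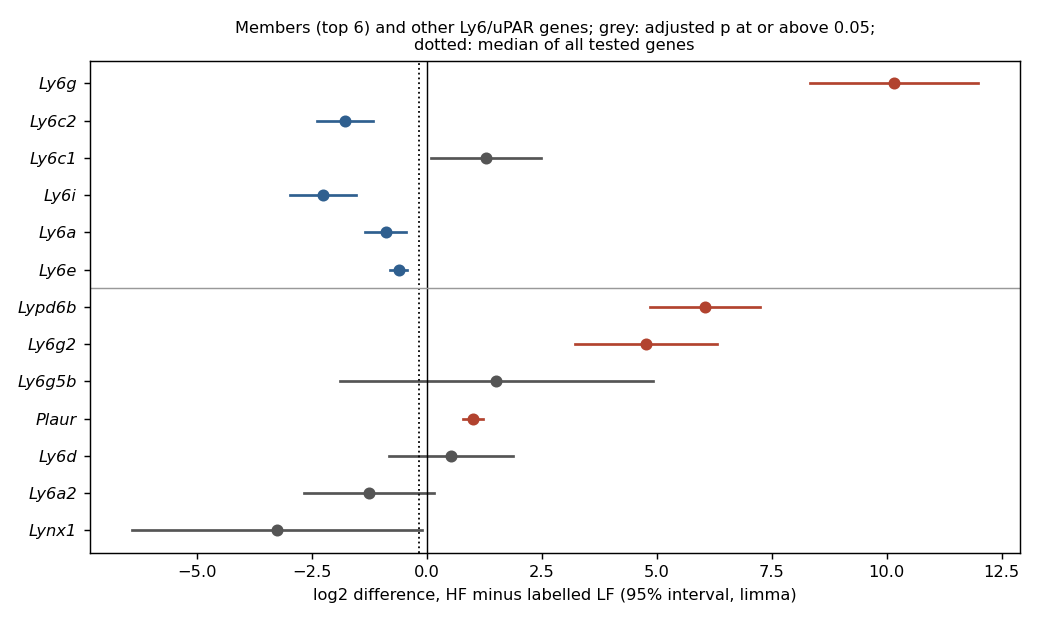
Log2 differences of HF minus the libraries labelled LF with 95% limma intervals, for the 6 Ly6 genes (upper block) and the 7 tested genes of the wider family (lower block). Red marks genes higher in HF, blue genes lower in HF and grey genes with an adjusted p at or above 0.05; the dotted line is the median of all tested genes, -0.16. Ly6g, Lypd6b and Ly6g2 lie farthest to the right, and 4 of the 6 members lie to the left of 0.

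The members lie in 1 cluster on chromosome 15, and the RefSeq order from Ly6d to Gpihbp1 holds 38 genes, of which 22 were in the table and 14 passed the filter. Of these 14, 5 were higher in HF and 5 lower, with genes of either direction next to each other. Over all genes tested 55.0% passed. Ly6g, Ly6g2, Gm28068 and Gm8000 passed the filter only through HF, since their means in the libraries labelled LF were under 10. The long non-coding RNA Gm39556, the neighbour of Ly6e, had 3762, 3268, 3707 and 3567 normalized counts in HF replicates 1 to 4 and 131, 110 and 98.6 in LF6, LF7 and LF8. It was higher in HF by 4.97 (SE 0.13, limma adjusted p = 8.79e-08), while Ly6e beside it was lower, and their RefSeq spans do not overlap. The non-coding RNA Gm28068, whose span overlaps Ly6i and Ly6a, had 138 ± 38.2 over the HF libraries (SD, n = 4) against 6.98 ± 5.46 over LF6 to LF8 (SD, n = 3), a difference of 4.52 opposite to that of Ly6i and Ly6a. The sources used here do not say whether counting used strand, and without it reads of overlapping genes cannot be told apart. The pseudogene Gm8000 was higher in HF (85.5 against 6.03, log2 difference 3.62, limma adjusted p = 0.000347) and the pseudogene Gm5960 lower (27.3 against 198, -2.98, limma adjusted p = 0.00291), and short stretches of Ly6a2 are shared with Gm5960. These 4 genes without a protein were chosen after their values were seen.

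**Figure D4:**
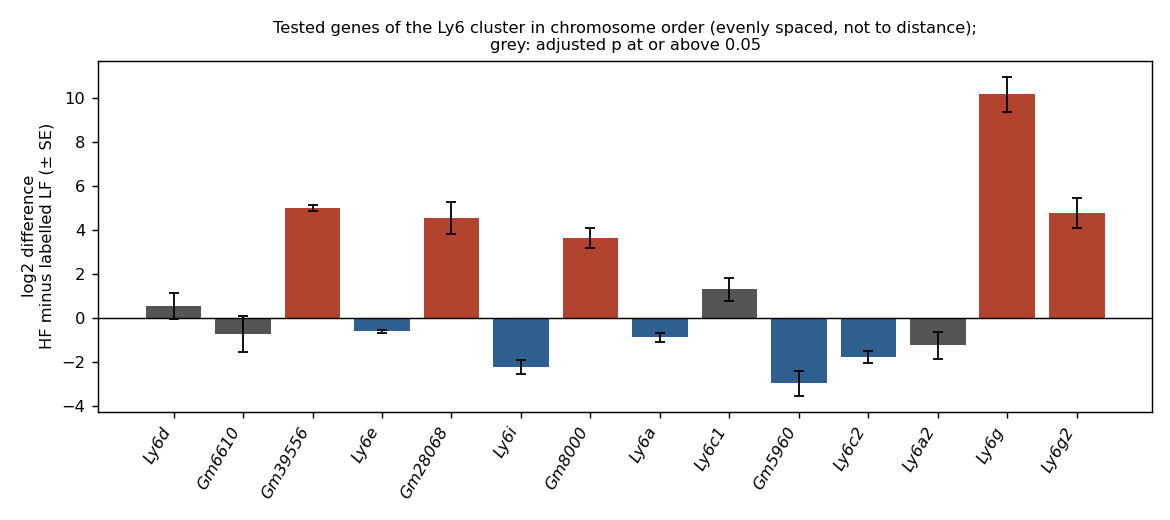
Log2 differences of HF minus the libraries labelled LF (bars, with SE) for the 14 tested genes of the Ly6 cluster, in chromosome order and evenly spaced. Red bars are higher in HF, blue bars lower and grey bars did not pass. Bars of both directions are interspersed, with Gm39556 at 4.97 beside Ly6e at -0.61 and Ly6g at 10.15 near Ly6c2 at -1.78.

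Several Ly6 genes are known to respond to interferon, so 38 interferon-stimulated genes, which include none of the members, were described beside them. All 38 were tested and 84.2% passed, beside 55.0% over all genes tested. Of the 38, 18 were higher in HF and 14 lower. Their median log2 difference was 0.19, which turned to -0.08 with quantile normalization and to -0.33 with equal library totals. Under these scalings 14 and 15 genes were higher in HF, and 18 were lower under each. Rsad2, an antiviral enzyme, had 11039 ± 2236 normalized counts over the HF libraries (SD, n = 4) against 1945 ± 391 over LF6 to LF8 (SD, n = 3), a difference of 2.50 (SE 0.19, limma adjusted p = 1.56e-05). Oasl2, a relative of the oligoadenylate synthetases, was higher in HF by 2.08 (SE 0.16, limma adjusted p = 1.71e-05), and Trim30a by 1.19 (SE 0.21, limma adjusted p = 0.00187). With quantile normalization Oasl2 still passed, at 1.22, and Trim30a did not (0.37); with equal library totals Trim30a was at 0.67 and passed. Gbp3, a guanylate-binding protein, was lower in HF (-2.16, SE 0.15, limma adjusted p = 8.74e-06), in the direction of Ly6a, Ly6e and Ly6i. The list thus held genes of both directions in the same libraries.

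All members reach the membrane through a GPI anchor, which the PIG enzymes build in the endoplasmic reticulum. Of 30 genes of anchor synthesis and remodelling, 7 were higher in HF and 11 lower, with a median of -0.53. Thus 60% passed, near the 55.0% of all genes tested, and nothing is read from the count. With equal library totals 3 were higher and 18 lower, and with quantile normalization 9 were higher and 8 lower. Without LF7 the calls fell to 9 and without LF8 to 10. The lowest p-values were those of Pigx, a subunit of the first mannosyltransferase, with 3034 ± 264 over the HF libraries (SD, n = 4) against 873 ± 17.1 over LF6 to LF8 (SD, n = 3; difference 1.79, limma adjusted p = 2.24e-06). Pigb, which adds the last mannose of the core, was higher in HF by 2.75 (SE 0.17, limma adjusted p = 4.86e-06), and Pigl, the deacetylase of an early step, by 2.09 (SE 0.24, limma adjusted p = 0.000158). Pigs, a subunit of the transamidase that attaches the anchor and one of the most abundant of the list, did not pass (-0.32, SE 0.13, limma adjusted p = 0.0721), but did once HF replicate 1 was left out (-0.38, adjusted p = 0.0401 by limma), under equal totals (-0.84, adjusted p = 0.00159) and under quantile normalization (-0.57, adjusted p = 0.00598).

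Other GPI-anchored surface proteins of leukocytes were then counted in the same way. Of 22 listed, 21 were in the table and 18 were tested. Of these 18, 10 were higher in HF and 2 lower, with a median of 1.49. Thus 66.7% passed, beside 55.0% over all genes tested. Cd24a, a small mucin-like protein of granulocytes and B cells, had 11026 ± 979 over the HF libraries (SD, n = 4) against 247 ± 93.4 over LF6 to LF8 (SD, n = 3; difference 5.53, limma adjusted p = 4.67e-07). Bst1, an ectoenzyme of myeloid cells, was higher in HF by 3.37 (SE 0.16, limma adjusted p = 1.11e-06), and Cd52 by 1.21 (SE 0.06, limma adjusted p = 1.03e-06). The Cd52 difference was 0.69 with equal library totals and 0.38 with quantile normalization, and passed with both. Cd177, a neutrophil protein that is also in the neutrophil marker list, had 15627, 6115, 6453 and 8631 in HF replicates 1 to 4 and 5648, 5063 and 4558 in LF6, LF7 and LF8. Its groups did not overlap, but the difference of 0.75 did not pass (SE 0.30, limma adjusted p = 0.0642), and its sign turned with quantile normalization (-0.066). It passed with DESeq2 (0.87) and without HF replicate 1 (0.46), 2 (0.91) or 3 (0.89).

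**Figure D5:**
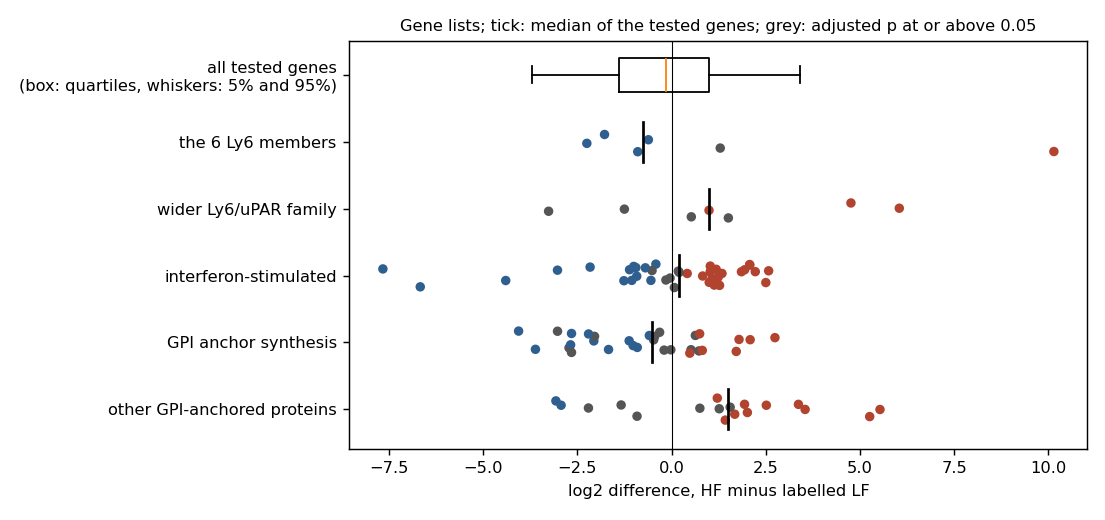
Log2 differences of HF minus the libraries labelled LF for the tested genes of 5 lists, 1 point a gene, with a tick at each median and a box plot of all tested genes on top (quartiles, with whiskers at 5% and 95%). Red points passed as higher in HF, blue as lower, and grey did not pass. The medians are -0.76 for the members, 0.995 for the wider family, 0.19 for interferon-stimulated genes, -0.53 for anchor synthesis and 1.49 for other GPI-anchored proteins.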

How the data were processed

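Lung cells of 4 HF and 3 LF mice were sorted, their RNA was taken up in TRIzol LS and SMART-Seq libraries were sequenced, per the labels' protocols. Tools named in the submitters' processing notes, without roles, are DESeq2 1.20.0, featureCounts 1.6.3 and STAR 2.6.1b. No build, annotation or strand setting is stated there. The deposited values are a signal, normalized counts per gene and library, per the file headers. All were whole multiples of 1 read (100% within 0.01), which gave the reads back. The deposited log2 fold changes, test scores and p-values are quoted only with the authors' deposited table named. LF columns (LF6, LF7, LF8) share no numbers with the LF labels (1 to 3) and were taken as the LF group. Unmapped columns numbered 0. The labels count mice, so p-values measure the spread between animals.

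The test was limma 3.58.1 (R 4.3.3, with trend) on log2(normalized count + 1) for genes with a mean of 10 or more, adjusted by Benjamini-Hochberg, threshold 0.05; the pseudocount understates changes of low genes. Tried beside it were other pseudocounts (0.5 and 5), other filters (none, or a mean of 50), equal totals, quantile normalization, each library left out in turn, and count tests on the recovered reads, where edgeR 4.0.16 called 7624 of 14936 genes and DESeq2 1.42.0 called 8472 of 14721. The fits were also run on simulated counts with known changes in a small part of the genes. That run did not cover the choice of scaling or changes in so large a share of genes, and its outcome is not quoted here. Intervals of read ratios cover counting error only, since amplified reads are not independent molecules. Genes are named by rule: the members, the tested genes of the wider Ly6/uPAR family, the 3 of lowest p and 2 of highest mean in each other list (marker lists as counts and sums), and the 3 nearest profiles of each member. Outside this rule some marker genes are named, where they were called or bear on a sum or the filter. The cluster genes without a protein are also outside it. The nearest profiles of Ly6a are not reported here. The members and lists were chosen with earlier results of these data known.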

Additional observations from a re-analysis of the deposited data

How the results depend on the processing

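Of the 6 members, 5 kept their direction and their side of the threshold under all 16 alternatives. Their log2 differences ranged from 8.63 to 11.08 for Ly6g, -2.68 to -1.62 for Ly6c2, -2.77 to -2.01 for Ly6i, -1.42 to -0.65 for Ly6a and -1.59 to -0.56 for Ly6e. Ly6c1 stayed positive (0.79 to 1.70) and passed under 2 alternatives, DESeq2 (1.47) and without HF replicate 4; with a library left out in turn it ranged from 1.10 to 1.70, and the cause was not tested. Equal library totals moved the median of all genes by -0.51 and the share of called genes that were higher in HF from 47.7% to 30.0%, so differences under it are to be read against that shift. Relative to it no member changed direction.

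Calls in the wider Ly6/uPAR family went from 3 to 5 with equal library totals, and ranged from 3 to 5 with a library left out, with 5 without HF replicate 1. Calls in anchor synthesis ranged from 9 to 21 in the same way (9 without LF7, 10 without LF8), those in interferon-stimulated genes from 25 to 33, those in other GPI-anchored proteins from 10 to 13 and those over all genes from 6450 to 8464. Cd177 turned to -0.066 with quantile normalization. With 1 of 3 LF libraries left out fewer samples enter each test. Depth limits Ly6g and Ly6g2 in the libraries labelled LF, where 13 and 1 reads were counted. No paired analysis was possible because the LF columns carry the numbers 6 to 8 and the labels 1 to 3, so no number is shared with an HF library in a way the labels state.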
